A study of Rattus norvegicus with 20 samples.

Results

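The cells compared here were cultured from the bladder (dome) and from the trachea of adult EGFP rats and sequenced before any transplantation. The comparison took the samples by their labels, 2 of bladder and 2 of trachea, from a series of 20 RNA-seq samples in 10 groups. The other groups were vagina, thymus and whisker follicle cells of the same round, and cells of all 5 tissues recovered from skin transplants (2nd round). The whisker samples of both rounds are labelled as clones and all others as bulk. The donors were Sprague-Dawley rats of the green rat line CZ-004, full name SDTgN (act-EGFP)obsCZ-004, which express EGFP constitutively, and both groups share this transgene. The trachea donors were at postnatal day 200 and the bladder donors 1 day older. The vagina donors were of the same age as the trachea donors, whereas the thymus donors were younger and the whisker donors the youngest. The bladder and trachea cultures were bulk cultures on irradiated mouse 3T3-J2 fibroblasts and were sorted on EGFP before RNA was extracted. Neither had been transplanted. The study sequenced the best 2 samples of each group after a check of RNA quality. Its text does not say that the samples of a group came from separate animals. The p values therefore measure only the spread between samples of a group, pooled over all 10 groups, and this spread may be technical.

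The bladder is lined by urothelium, a transitional epithelium whose basal cells give rise to intermediate cells and to large umbrella cells covered with uroplakin plaques. The trachea is lined by a pseudostratified epithelium in which basal cells renew ciliated, club and mucus cells. Basal cells of both express Tp63, a transcription factor of stratified epithelia, and both can be expanded on fibroblast feeder layers. In both organs the epithelium is a barrier that handles ions and water and takes part in innate defence, and both tissues need retinoic acid to keep from turning squamous.

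Reads counted on genes numbered 26884170 and 22702651 in bladder samples 1 and 2 and 24404581 and 23441909 in trachea samples 1 and 2. Levels are given in CPM, counts scaled to library size with TMM factors, and 3 counts corresponded to between 0.112 and 0.132 CPM in these 4 samples. Differences are log2 fold changes, bladder minus trachea, from limma (voom), so that a positive value means a higher level in bladder. A gene counts as called where limma gave it a p value below 0.05 after Benjamini-Hochberg adjustment and the tissues differed 2-fold or more. Of 32494 Ensembl genes, 2 Y-linked genes were left out and 13300 passed the filter of at least 1 CPM in some sample. Names could be given to 1911 of them, through the study's lists of genes that differed from whisker cells, so named genes are no random draw. These are bulk samples, in which fewer cells of a type and less RNA per cell cannot be told apart. CPM is not scaled by gene length, and levels are therefore compared between samples and not between genes.

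Bladder and trachea cells differed in 2063 of the 13300 genes, 15.5%, of which 1320 (9.92%) were higher in bladder and 743 (5.59%) in trachea. The median log2 fold change of all tested genes was -0.01. Among the 1911 genes with a usable symbol, 646 were called (33.8%), 412 higher in bladder (21.6%) and 234 higher in trachea (12.2%), with a median log2 fold change of 0.14. The 2 groups of samples did not overlap in 2061 of the 2063 called genes, and this also held for 9653 (72.6%) of all tested genes.

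As whole profiles, the bladder and trachea cultures were the closest of the 10 pairs of tissues in the first round. Taken as the root mean square of log2 CPM differences over all tested genes, the distance was on average 1.05 between a bladder and a trachea sample, and lay between 1.01 and 1.09 in the 4 sample pairs. The next pairs were thymus and vagina at 1.12 and trachea and vagina at 1.13, and the most distant pair was bladder and whisker at 1.76. Samples of a group lay between 0.252 (trachea) and 0.450 (bladder) apart, so every difference between tissues exceeded the spread within groups. These distances are a description, since the sample pairs share samples. Thymus and whisker donors were younger than bladder, trachea and vagina donors, and the part of donor age in the distances was not tested.

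**Figure D1:**
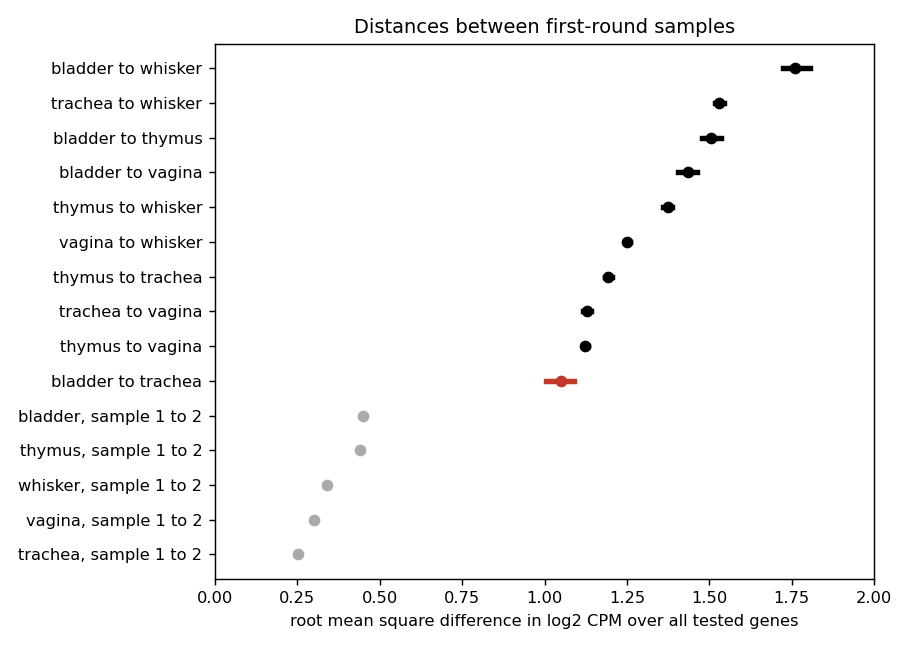
Root mean square difference in log2 CPM (x axis) for each pair of first-round groups, with a point at the mean of the 4 sample pairs and a bar from the lowest to the highest, and for the 2 samples of each group (grey). Bladder to trachea (red, 1.05) is the smallest distance between groups, and the samples within groups lie at 0.450 or less.

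Markers of the labelled tissues could be checked only in part. Of 18 urothelial markers, 8 were paired with a symbol and tested. Among them, 5 were higher in bladder, and the other 3 had positive values below the threshold, with a median log2 fold change of 1.46 over the 8. Fabp4, a fatty acid binding protein found in urothelium, stood at 54.5 and 101 CPM in bladder and 0.577 and 0.845 CPM in trachea. Foxa1, a forkhead factor of endoderm-derived epithelia, stood at 128 and 74.3 CPM against 19.9 and 19.1 CPM. In both genes the lower bladder sample lay far above both trachea samples, with log2 fold changes of 6.69 and 2.33. The simple-epithelial keratins Krt18 and Krt19 and the transcription factor Elf3 were the other called members, with log2 fold changes of 2.19, 1.82 and 1.11, of which Elf3 fell below the 2-fold threshold without bladder sample 1. Upk1b, the only uroplakin with a symbol, was present in both tissues at 167 and 191 CPM in bladder and 125 and 137.3 CPM in trachea. Its log2 fold change of 0.45 (SE 0.10) was not large enough to be called. Krt8 (0.58) and Psca (0.93) were likewise not called. The other uroplakins, Krt7, Krt20, Gata3 and Pparg have no symbol in the lists used and are not analysed here.

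The airway markers did not separate the tissues as a list. Of 21, 6 were tested, with 2 higher in trachea, 2 higher in bladder and a median log2 fold change of -0.18. Cyp2f4, a cytochrome P450 of club cells, stood at 0.112 and 0.0862 CPM in bladder and 3.08 and 3.46 CPM in trachea, and Aldh3a1, an aldehyde dehydrogenase of airway and cornea, at 9 and 8.36 and 27.8 and 26.8 CPM. Both were low in bladder and higher in both trachea samples, with log2 fold changes of -4.78 and -1.65. Pigr, the receptor that carries immunoglobulin A across epithelia, was instead higher in bladder, at 30.6 and 33 CPM against 4.73 and 3.78 CPM (2.90). Agr3, a protein disulfide isomerase of ciliated cells, was low everywhere, at 1.79 and 0.862 CPM in bladder and 0.0769 and 0.0805 CPM in trachea. The chloride channel Cftr reached 18.9 and 10.6 CPM in bladder and 23.4 and 24.3 CPM in trachea and was not called (-0.74). Nkx2-1, the secretoglobins and the gel-forming mucins have no symbol in the lists used and are not analysed here, so few markers were left to check the trachea label.

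Basal cell, ciliated and other markers were weighed in the same way. Of 13 basal markers, 4 were tested and 2 were higher in trachea, while Tp63, Krt5 and Krt14 are not analysed here. Col17a1, the hemidesmosomal collagen that anchors basal cells, stood at 236 and 483 CPM in bladder and 714 and 776 CPM in trachea. Dlk2, a noncanonical Notch ligand, stood at 1.64 and 3.88 CPM against 12.4 and 15.2 CPM. In the other first-round tissues Col17a1 lay between 1548 and 5158 CPM and Dlk2 between 40.5 and 96.4 CPM. Both bladder samples were below both trachea samples, with log2 fold changes of -1.14 and -2.47, and sample 1 was the lower of the bladder samples in both. Without it, the value for Col17a1 was no longer called and that for Dlk2 was -1.82. Ciliated-cell genes were at low levels, with the 19 tested of 29 summing to 48.7 and 38.7 CPM in bladder and 37.5 and 39.8 CPM in trachea. Among them, 4 were higher in bladder, and 2 were higher in trachea when bladder sample 1 was left out. Fibroblast genes, 6 of 10 tested, summed to 366.6 and 305.3 CPM in bladder and 421.6 and 439.3 CPM in trachea, with log2 fold changes from -0.75 (Col3a1) to -0.03 (Col1a1) beside Aspn, which had at most 1 count in any of the 4 samples. The single smooth muscle gene, Acta2, was higher in bladder at 8.03 and 10.3 against 3.23 and 3.22 CPM. The single endothelial gene, Esam, stood at 1.87 and 1.38 CPM in bladder and 1.77 and 1.57 CPM in trachea. The 4 immune genes tested summed to 35.7 and 29.4 CPM in bladder and 22.2 and 20.5 CPM in trachea. Of these, Lcp1 and Cd53 were higher in bladder (1.33 and 2.90, the latter 2.26 without bladder sample 1) and Coro1a was higher in trachea (-2.47). The part of such cells in the results was not tested. The broad epithelial markers, 8 of 9 tested, summed to 7358 and 6900.0 CPM in bladder and 3714 and 3805 CPM in trachea, and 3 were called higher in bladder.

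Among genes that reached 10 CPM in each sample of the higher tissue, those furthest apart included an enzyme of retinoic acid synthesis and an apical oxidase, both high in bladder. Aldh1a3, which makes retinoic acid from retinaldehyde, stood at 5530 and 4074 CPM in the bladder samples and 72.1 and 66.3 CPM in the trachea samples. The vagina, thymus and whisker cells of the same round lay between 26.0 and 65.7 CPM, so that bladder was high and trachea lay near the others. The log2 fold change was 6.10 (SE 0.12, limma adjusted p = 1.32e-15), a 68.6-fold difference. Duox2, a dual oxidase that releases hydrogen peroxide at the cell surface, stood at 159.6 and 100.5 CPM in bladder and 2.19 and 2.21 CPM in trachea. Duoxa2, the factor that Duox2 needs to leave the endoplasmic reticulum, stood at 41.8 and 24.9 CPM against 0.269 and 0.121 CPM. Both genes were high in both bladder samples, and more so in sample 1, and low in both trachea samples. Their log2 fold changes were 5.84 (SE 0.37, limma adjusted p = 2.81e-09) and 7.33 (SE 0.72, limma adjusted p = 4.24e-07). Whisker cells also held both genes, Duoxa2 at 21.7 and 23.8 CPM and Duox2 at 162.8 and 187.3 CPM, the latter above both bladder samples.

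A further 3 genes with a large difference were near the detection floor in trachea. The aspartic protease Ctse, cathepsin E, stood at 83.4 and 60.5 CPM in bladder and 0.385 and 0.483 CPM in trachea. Fabp4, given above, and the T-box factor Tbx3 at 33.5 and 44 against 0.5 and 0.443 CPM showed the same arrangement, with no overlap between tissues. The log2 fold changes of Ctse and Tbx3 were 7.31 (SE 0.49) and 6.28 (SE 0.39). In the other first-round tissues Ctse did not exceed 0.141 CPM and Fabp4 did not exceed 0.709 CPM, whereas Tbx3 reached 26.3 CPM. A further 8 of the genes furthest towards bladder had log2 fold changes between 4.13 and 5.09. They were Degs2, which hydroxylates ceramides, the protease inhibitor Ctla2a, the adenylate cyclase Adcy8, the chloride-conductance regulator Clca4, galectin 4 (Lgals4), the cadherin Cdh6, the tissue-nonspecific alkaline phosphatase Alpl and the innate signalling adaptor Card9. All 8 were higher in both bladder samples than in both trachea samples.

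**Figure D2:**
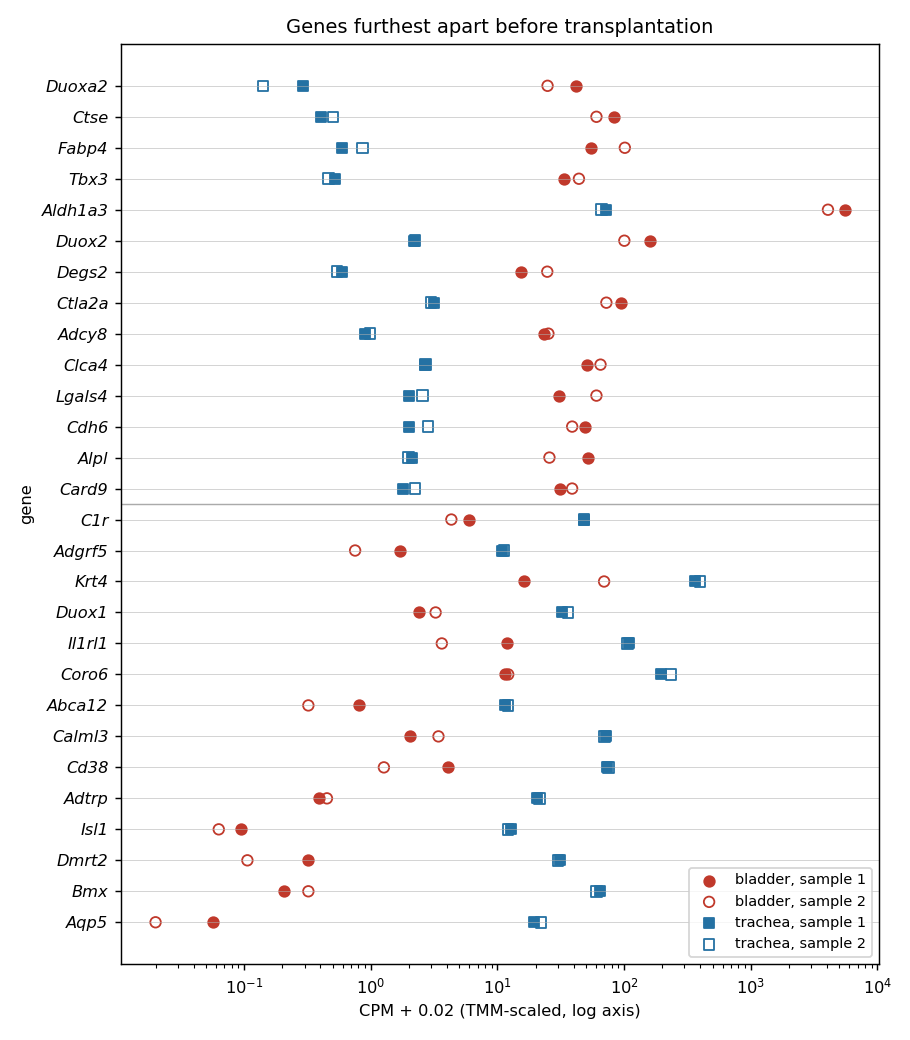
Levels in the 4 samples (x axis, CPM plus 0.02 on a log scale) of 14 of the genes furthest towards bladder (upper) and 14 of those furthest towards trachea (lower), with filled and open symbols for samples 1 and 2. Red bladder symbols and blue trachea symbols do not overlap in any row, and the bladder samples of Krt4 and Il1rl1 lie well apart.

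In the other direction, Aqp5, a water channel of airway and gland epithelia, had 504 and 550 counts in trachea and 1 and 0 in bladder. That is 19.4 and 22.1 CPM in trachea, and the ratio of the tissues was 1036, with an exact counting interval from 185.5 to 40940 that covers counting error only. Bmx, a tyrosine kinase of the Tec family, stood at 0.187 and 0.302 CPM in bladder and 64 and 60.5 CPM in trachea. The LIM homeodomain factor Isl1 had 2 and 1 counts in bladder and 12.7 and 12.2 CPM in trachea, a ratio of 207 with a counting interval from 70.5 to 1006. Thus trachea samples were high and bladder samples near 0 in these 3 genes. Dmrt2, a DM-domain transcription factor, stood at 0.299 and 0.0862 CPM in bladder and 31.1 and 30.1 CPM in trachea, and its log2 fold change of -7.34 moved to -8.15 without bladder sample 1 and -6.59 without sample 2. For Aqp5 the fitted value moved between -9.91 and -8.53 in the same way. The fitted difference for Bmx was -7.93 on the log2 scale (SE 0.40, limma adjusted p = 1.78e-10). Fitted fold changes of genes with so few counts depend on the prior count.

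Cd38, an enzyme that degrades NAD, stood at 4.07 and 1.25 CPM in bladder and 72.8 and 75.4 CPM in trachea. Il1rl1, the receptor of interleukin 33, stood at 12 and 3.62 CPM against 109.5 and 107 CPM. Each was several times higher in both trachea samples than in the higher bladder sample. Their log2 fold changes were -4.97 and -3.98. Without bladder sample 1 the values for Cd38 and Il1rl1 were -5.87 and -4.89, and without sample 2 they were -4.18 and -3.17. The membrane hydrolase Adtrp, the coronin Coro6 and the adhesion receptor Adgrf5 were also among the 15 furthest towards trachea (-5.64, -4.18 and -3.25, the last -3.87 without bladder sample 1). Others, Calml3, Abca12, Duox1, Krt4 and C1r, are given with their groups.

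The gene lists described next contain genes chosen for their functions, but with earlier results of these data known, and some genes stand on more than one list. Each count is to be read against the 21.6% and 12.2% of named genes called towards bladder and trachea. Since the lists are not independent of the data, counts above these shares are a description and were not tested.

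**Figure D3:**
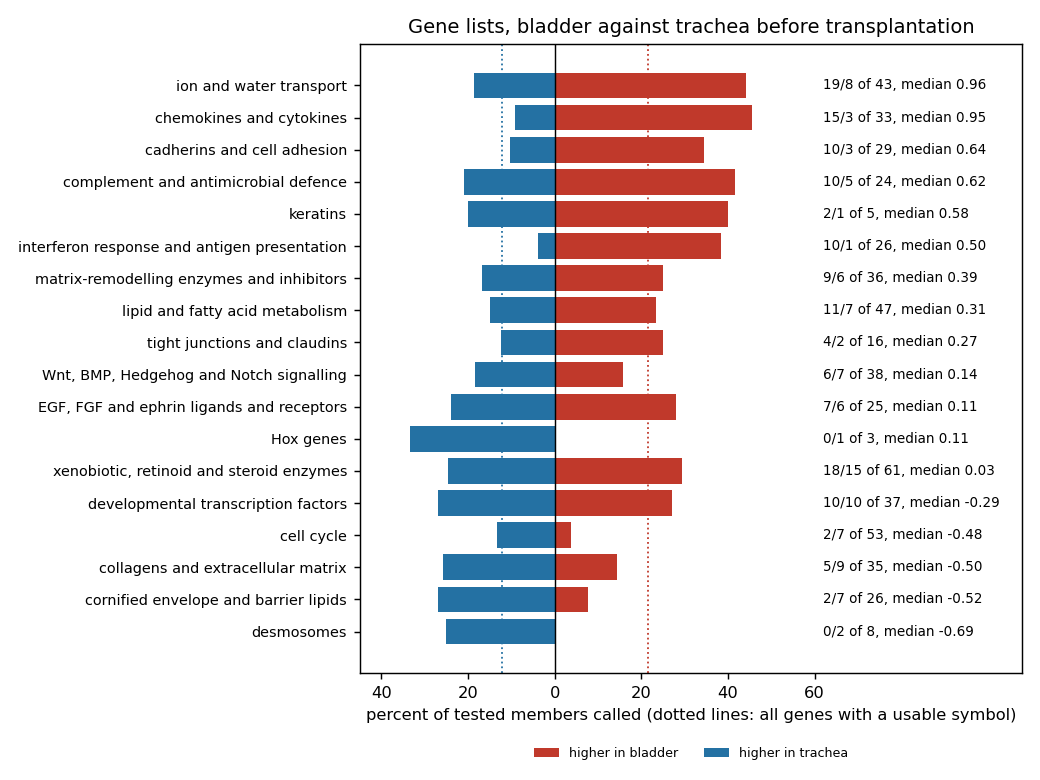
Percent of the tested members of each gene list that were called higher in bladder (red, to the right) or in trachea (blue, to the left) before transplantation, with dotted lines at the 21.6% and 12.2% of all named genes. The numbers give members higher in bladder, higher in trachea and tested, with the median log2 fold change, which is 0.96 for ion and water transport and 0.95 for chemokines and cytokines, an order that edgeR and DESeq2 reverse.

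More squamous and barrier genes were higher in trachea than in bladder. Of 26 tested genes of the cornified envelope and its lipids, 7 (limma) were higher in trachea and 2 in bladder, with a median log2 fold change of -0.52, or -0.35 with the gene that had no count in 1 tissue set at its bound. The median was -0.34 with edgeR and with DESeq2, -0.19 without bladder sample 1 and -0.41 without sample 2. The 26 genes summed to 547 and 611 CPM in bladder and 585 and 582 CPM in trachea. Calml3, a calmodulin-like protein of differentiating keratinocytes, stood at 2.02 and 3.4 CPM in bladder and 71.8 and 69.8 CPM in trachea. Abca12, a lipid transporter of lamellar granules, stood at 0.784 and 0.302 CPM against 11.4 and 12.1 CPM, and cornulin (Crnn) at 0.112 and 0.302 CPM against 3.77 and 4.3 CPM. All 3 were low in both bladder samples, with log2 fold changes of -4.77, -4.50 and -4.32. In the other first-round tissues Calml3 lay between 3.645 and 94.6 CPM, Abca12 between 6.11 and 50.7 CPM and Crnn between 1.34 and 3.78 CPM. Bladder was thus the lowest tissue in these genes. Leaving out bladder sample 1 moved Abca12 to -5.18 and Crnn to -3.64, and leaving out sample 2 moved them to -3.87 and -4.95. Against this direction, Degs2 was higher in bladder, at 15.5 and 24.7 CPM against 0.577 and 0.523 CPM (5.09). Degs2 lay between 10.4 and 20.4 CPM in the other first-round tissues, so trachea was the lowest.

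Of 8 tested desmosome genes, 2 were higher in trachea and the median was -0.69. Dsg3, a desmosomal cadherin of basal layers, stood at 143 and 159.9 CPM in bladder and 667 and 722 CPM in trachea, and the plaque protein envoplakin (Evpl) at 147 and 219 CPM against 371 and 411 CPM. Neither overlapped between tissues, and the log2 fold changes were -2.20 (SE 0.10, limma adjusted p = 4.05e-11) and -1.12 (SE 0.13). In the other first-round tissues Dsg3 lay between 650 and 1424 CPM and Evpl between 319 and 691 CPM, so bladder was lowest in both. Evpl was not called without bladder sample 1, and edgeR called 3 desmosome genes. Among 5 keratins with a symbol, Krt18 and Krt19 were higher in bladder, and Krt4, a keratin of non-cornified stratified epithelia, was higher in trachea. Krt4 stood at 16.2 and 69.6 CPM in bladder and 363 and 396 CPM in trachea, so the bladder samples differed from each other by more than 4-fold and both lay far below trachea. The log2 fold change of Krt4 was -3.53 (SE 0.37), or -2.45 without bladder sample 1 and -4.55 without sample 2. Krt18 stood at 379 and 289.9 CPM against 71.8 and 73.5 CPM and Krt19 at 857 and 987 CPM against 248 and 273 CPM.

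Tight junction genes were called in both directions, 4 of 16 higher in bladder and 2 higher in trachea, with a median of 0.27. Clmp, an adhesion molecule of tight junctions, stood at 44.4 and 40.9 CPM in bladder and 3.92 and 3.02 CPM in trachea (3.62, SE 0.15). Cldn23 stood at 72.2 and 58.6 against 19.4 and 20.5 CPM, whereas Cldn1, a claudin that seals the epidermal barrier, was lower in bladder at 111 and 50 against 215 and 225 CPM. The tissues did not overlap in any of these, with log2 fold changes of 1.71 and -1.56. In the other first-round tissues Clmp lay between 1.59 and 8.44 CPM, Cldn23 between 24.2 and 65.7 CPM and Cldn1 between 585 and 840 CPM. Without bladder sample 2, neither Cldn1 nor Jam2, the other gene higher in trachea, was called, whereas 3 were called towards trachea without sample 1. Cldn8 was low, at 0.784 and 1.68 against 0.423 and 0.241 CPM, and its call (1.75) was lost without trachea sample 2 and in a fit of only these 4 samples.

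Developmental transcription factors were called as often in either direction. Of 37 tested, 10 were higher in bladder and 10 in trachea, 54.1% in all against 33.8% of named genes. Towards trachea stood Isl1 and Dmrt2, given above. Towards bladder stood Tbx3 and Foxa1, given above, and Irx4, an Iroquois homeobox factor, which had 24 and 25 counts in bladder and 0 in both trachea samples, at least 16.6-fold higher against a floor of 3 counts over both trachea samples. Eya1, a transcriptional coactivator and phosphatase, stood at 7.13 and 4.74 CPM in bladder and 0.654 and 0.644 CPM in trachea. Both bladder samples lay above both trachea samples, with a log2 fold change of 3.14. Eya1 was picked in addition to the genes that the naming rule gave. The median of the list was -0.29, and it was 0.03 without bladder sample 1. Of 3 tested Hox genes, Hoxa3 was higher in trachea, at 0.485 and 0.69 against 1.69 and 1.81 CPM (-1.57).

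Signalling ligands and receptors were likewise divided. Of 38 tested genes of the Wnt, BMP, Hedgehog and Notch pathways, 6 were higher in bladder and 7 in trachea (4 without bladder sample 1), with a median of 0.14. Bmp2, a BMP ligand, stood at 13.6 and 15.2 CPM in bladder and 3.58 and 3.14 CPM in trachea, a log2 fold change of 2.09 (SE 0.18). Bmpr1b, a BMP receptor, had 1 and 2 counts in bladder and 4.77 and 4.75 CPM in trachea, a ratio of 79.3 with a counting interval from 26.8 to 387. This ligand was thus higher in bladder while this receptor was near the detection floor there. Dll1, a Notch ligand, stood at 3.14 and 6.38 CPM in bladder and 22 and 22.9 CPM in trachea (-2.35), with no overlap.

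Among 25 tested ligands and receptors of the EGF, FGF and ephrin families, 7 were higher in bladder and 6 in trachea, with a median of 0.11. The EGF-family ligand Ereg stood at 16.9 and 13.4 CPM in bladder and 44.9 and 47.2 CPM in trachea, whereas Btc, a ligand of the same receptor, stood at 6.05 and 3.75 CPM against 1.38 and 1.49 CPM. Their directions were opposite, with log2 fold changes of -1.61 (SE 0.14) and 1.74 (SE 0.30). Ephb1, an ephrin receptor, had 0 and 1 counts in bladder and 4.11 and 3.62 CPM in trachea, a ratio of 193.6 with a counting interval from 34.3 to 7683. Epha7 stood at 6.24 and 6.98 against 26.1 and 29.4 CPM (-2.07), and Dusp4, a phosphatase of MAP kinases, at 51.1 and 53.2 against 13.8 and 13.7 CPM (1.92). The fitted value for Ephb1 was -6.83, and -5.91 without bladder sample 1 or -7.70 without sample 2.

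Enzymes of retinoid, steroid and xenobiotic metabolism were called in both directions, 18 of 61 higher in bladder and 15 in trachea, 54.1% in all, with a median of 0.03. Within the retinoic acid pathway, Aldh1a3 was high in bladder, as given above, while its relative Aldh1a1 was higher in trachea, at 1.08 and 1.81 CPM in bladder and 12.2 and 12.8 CPM in trachea (-3.15, SE 0.23). Dhrs9, a retinol dehydrogenase, stood at 109 and 82.7 CPM in bladder and 19 and 20.7 CPM in trachea (2.26). Crabp2, which carries retinoic acid to the nucleus, stood at 263 and 268 against 101 and 96 CPM (1.43). Cyp26b1, which breaks retinoic acid down, was not called, at 20.6 and 24.9 against 18.4 and 15.2 CPM (0.43). These 4 genes beside Aldh1a3 were picked from the list after their values were seen. Reads that align to several places were left uncounted, so near-identical copies in the Aldh1a, Cyp2 and Akr1c families may be misjudged.

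Ephx2, an epoxide hydrolase of fatty acid epoxides, stood at 7.47 and 7.97 CPM in bladder and 0.346 and 0.724 CPM in trachea (3.90). Cyp2f4, named with the airway markers, was the furthest towards trachea on the list. Akr1c14, a steroid dehydrogenase, had 2 and 0 counts in bladder and 13 and 25 in trachea, a ratio of 18.7 with a counting interval from 4.82 to 159.7. Its fitted value moved from -3.98 to -5.07 without bladder sample 1 and -2.96 without sample 2, and DESeq2 did not call it.

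Of 43 tested genes of ion and water transport, 19 (44.2%) were higher in bladder and 8 in trachea, with a median of 0.96. Slc6a14, an amino acid transporter driven by sodium and chloride, stood at 131 and 96 CPM in bladder and 10.7 and 10.4 CPM in trachea (3.41, SE 0.17, limma adjusted p = 1.94e-10). Clca4, a regulator of chloride conductance, stood at 50.9 and 65.2 CPM against 2.65 and 2.7 CPM (4.41). In both, the bladder samples lay far above the trachea samples, and the samples of a tissue lay close together. The water channels did not share a direction. Aqp5 was far higher in trachea, and Aqp1 was also higher there, at 3.25 and 4.48 CPM in bladder and 8.19 and 7.93 CPM in trachea (-1.09). Aqp9 was higher in bladder, at 4 and 2.37 against 1 and 1.01 CPM (1.62). Aqp3, at 143 and 222 CPM in bladder and 103 and 103 CPM in trachea, was not called (0.79). Aqp1, Aqp3 and Aqp9 were picked after their values were seen.

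More genes of innate defence were higher in bladder than in trachea. Of 33 tested chemokines, cytokines and their receptors, 15 (45.5%) were higher in bladder and 3 in trachea, with a median of 0.95. Cxcl6, which attracts neutrophils, stood at 3228 and 1851 CPM in bladder and 487 and 422 CPM in trachea. Ccl20, which attracts cells with the receptor Ccr6, stood at 43 and 26.2 CPM against 6.08 and 4.26 CPM, and the membrane-bound chemokine Cx3cl1 at 41.6 and 58.5 CPM against 5.04 and 3.9 CPM. Both bladder samples exceeded both trachea samples in each, with log2 fold changes of 2.43 (SE 0.17), 2.72 (SE 0.25) and 3.46 (SE 0.20). The chemokine receptor Cxcr4 stood at 8.81 and 4.22 CPM in bladder and 0.154 and 0.0805 CPM in trachea (5.56). Against the rest, Cxcl17 had 2 and 0 counts in bladder and 30 and 37 in trachea, a ratio of 32.9 with a counting interval from 8.76 to 277.4. Its fitted value moved from -4.85 to -5.94 or -3.83 without a bladder sample, and DESeq2 did not call it. Il1rl1, given above, was higher in trachea as well.

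Complement and antimicrobial genes included the dual oxidases. Of 24 tested, 10 were higher in bladder and 5 in trachea, with a median of 0.62. C3, the central complement protein, stood at 1426 and 1036 CPM in bladder and 119 and 104 CPM in trachea. Both bladder samples lay far above both trachea samples, with a difference of 3.45 on the log2 scale (SE 0.11, limma adjusted p = 1.02e-12). C1r, a protease that starts the classical cascade, went the other way, at 5.94 and 4.31 CPM in bladder and 48.3 and 48.2 CPM in trachea (-3.23). C3 was picked after its values were seen.

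Among 26 tested genes of interferon response and antigen presentation, 10 were higher in bladder (8 without bladder sample 1) and 1 in trachea, with a median of 0.50. Gbp5, an interferon-induced GTPase, stood at 35.1 and 15 CPM in bladder and 2.27 and 2.05 CPM in trachea. Ifitm1, a membrane protein that blocks viral entry, stood at 18.6 and 6.46 CPM against 1.54 and 1.29 CPM. In both genes bladder sample 1 was more than 2-fold above sample 2, and both were above trachea. The log2 fold change of Gbp5 was 3.42, or 2.79 without bladder sample 1 and 4.01 without sample 2, and that of Ifitm1 was 2.98, or 2.18 and 3.70. Cd86, a costimulatory ligand, was low but higher in bladder, at 1.64 and 2.46 against 0.192 and 0.121 CPM (3.53). The gene higher in trachea was Ifit2, an interferon-induced RNA-binding protein, at 6.24 and 3.75 CPM in bladder and 42.8 and 48.4 CPM in trachea (-3.21, SE 0.16).

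The 250 bases before the start site are shown for 5 of these immune genes that were higher in bladder, because inducible chemokine promoters are known to hold sites for NF-kB, AP-1 and interferon-activated factors. The sequences are from RefSeq (GRCr8), 5′ to 3′ on the strand of the gene, which is another assembly than that of the counts. The 5 genes were chosen after their values were seen. Each holds a match, which most genes higher in bladder lack, so they do not stand for that set. Capitals mark a match on either strand to GGG and TTTCC with any 2 bases between (NF-kB-like), TGANTCA (AP-1) or GAAA and GAAA with any 2 bases between (an interferon-stimulated element).
Cxcl6, chr14:17596418-17596667, minus strand: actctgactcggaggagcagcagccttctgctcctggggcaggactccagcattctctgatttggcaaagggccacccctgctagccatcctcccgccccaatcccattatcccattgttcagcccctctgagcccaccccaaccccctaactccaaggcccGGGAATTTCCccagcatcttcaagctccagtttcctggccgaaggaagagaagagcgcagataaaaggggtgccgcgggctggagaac
Ccl20, chr9:91836909-91837158, plus strand: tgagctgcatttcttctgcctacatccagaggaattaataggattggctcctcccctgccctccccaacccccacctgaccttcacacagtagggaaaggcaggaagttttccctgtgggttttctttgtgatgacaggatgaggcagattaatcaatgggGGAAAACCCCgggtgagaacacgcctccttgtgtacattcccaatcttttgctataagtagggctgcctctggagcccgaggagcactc
Gbp5, chr2:233910749-233910998, plus strand: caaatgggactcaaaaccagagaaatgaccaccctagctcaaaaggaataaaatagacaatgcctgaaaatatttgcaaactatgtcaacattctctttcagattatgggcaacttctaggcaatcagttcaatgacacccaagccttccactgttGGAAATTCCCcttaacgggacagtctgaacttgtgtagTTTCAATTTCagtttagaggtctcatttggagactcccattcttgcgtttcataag
Cxcl10, chr14:15988816-15989065, plus strand: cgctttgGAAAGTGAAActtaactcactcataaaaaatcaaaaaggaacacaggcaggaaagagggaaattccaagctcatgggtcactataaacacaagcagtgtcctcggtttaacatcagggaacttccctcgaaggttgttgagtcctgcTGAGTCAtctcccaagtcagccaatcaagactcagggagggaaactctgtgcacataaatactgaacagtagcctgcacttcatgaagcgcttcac
Cxcl11, chr14:15973478-15973727, plus strand: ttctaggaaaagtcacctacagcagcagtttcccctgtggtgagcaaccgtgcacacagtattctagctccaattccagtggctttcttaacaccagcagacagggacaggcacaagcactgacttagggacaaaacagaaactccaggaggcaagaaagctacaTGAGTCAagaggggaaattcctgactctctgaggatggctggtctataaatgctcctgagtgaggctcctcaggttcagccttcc

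The NF-kB-like match began 88 bases before the start in Cxcl6, 89 in Ccl20 and 94 in Gbp5. Gbp5 also held an interferon-stimulated element at 56 bases, and Cxcl10 held one at 243 bases and an AP-1 match at 96, while Cxcl11 held an AP-1 match at 85. Only the letters given were searched, here and in the shares below. A run such as gggaaattcc, which Cxcl10 and Cxcl11 hold, was therefore not counted as NF-kB-like. Windows from 250 bases before to 50 after the start were found for 1469 of the 1911 named genes. The NF-kB-like letters stood in 14 of the 313 windows of genes higher in bladder (4.5%), in 4 of 183 higher in trachea (2.2%), in 1.3% of 973 not called, and in 1.5% of 27457 windows of all genes. The interferon-stimulated letters stood in 3.8%, 1.1% and 2.7% of the 3 sets and in 3.8% of all windows, and the AP-1 letters in 8.9%, 4.9% and 6.7% and in 7.3%. Forkhead letters (TNTTTAC) stood in 8.6%, 7.7% and 8.2% and in 13.2% of all, and TATAAA in 11.2%, 7.7% and 7.7% and in 14.3% of all. These shares were not tested, the motifs were searched on both strands, and a match is a run of letters, not a shown site. Cxcl10 stood at 70.8 and 35.9 CPM in bladder and 18.6 and 16.2 CPM in trachea, and Cxcl11 at 12.5 and 5.95 CPM against 1.23 and 1.33 CPM, so both were higher in bladder (1.54 and 2.76) and highest in sample 1.

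Collagens and matrix proteins had more calls towards trachea, while the enzymes that remodel matrix had more towards bladder, as all named genes did. Of 35 tested collagens and matrix proteins, 5 were higher in bladder and 9 in trachea, with a median of -0.50. Col4a4, a basement membrane collagen chain, stood at 0.261 and 0.474 CPM in bladder and 2.27 and 2.82 CPM in trachea, and Col11a1 at 2.09 and 1.38 CPM against 8.61 and 10.4 CPM. Both were below 3 CPM in bladder and higher in both trachea samples (-2.79 and -2.45). Col27a1, a fibrillar collagen, went the other way, at 5.34 and 4.96 CPM in bladder and 0.461 and 0.563 CPM in trachea (3.29), and Abi3bp was low in both, at 0.336 and 0.259 against 1.61 and 1.77 CPM (-2.43). Of 36 enzymes and inhibitors that remodel matrix, 9 were higher in bladder and 6 in trachea, with a median of 0.39. That was 41.7% in all against 33.8% of named genes, and the median was 0.235 without bladder sample 1. Ctse was the furthest towards bladder on this list and Mmp24, a membrane-bound metalloprotease, the furthest towards trachea, at 4.07 and 3.49 CPM in bladder and 30.6 and 31.3 CPM in trachea (-3.02, SE 0.17). The disintegrin Adam28 stood at 79.1 and 37.8 against 8.34 and 8.85 CPM (2.68), and cathepsin S (Ctss) was low at 1.2 and 1.55 against 0.231 and 0.201 CPM (2.54).

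Of 29 tested cadherins and other adhesion genes, 10 were higher in bladder and 3 in trachea, with a median of 0.64. Cd24, a surface glycoprotein of many epithelia, stood at 779.9 and 632 CPM in bladder and 99.5 and 98.6 CPM in trachea (2.82, SE 0.11, limma adjusted p = 9.25e-12). The cadherin Cdh6 stood at 49.3 and 38.9 CPM against 2 and 2.82 CPM and was at or below 0.0765 CPM in the other first-round tissues. Nrcam, an adhesion molecule best known in neurons, stood at 21.7 and 8.71 CPM in bladder and 1.46 and 1.53 CPM in trachea, with bladder sample 1 more than 2-fold above sample 2. Its log2 fold change of 3.22 was 2.53 without sample 1 and 3.84 without sample 2. Cadm1 was also higher in bladder (2.39). The epithelial cadherin Cdh1 and Epcam were present in both tissues at high levels and were not called (0.80 and 0.73).

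Cell cycle genes differed between the bladder samples, and a smaller share of them than of all named genes was called between the tissues. Of 53 tested, 7 were higher in trachea and 2 in bladder, 17.0% in all against 33.8% of named genes, with a median of -0.48. Without bladder sample 1 the count towards trachea was 3 and the median -0.20, and without sample 2 they were 22 and -0.90. The median log2 ratio of bladder sample 1 to sample 2 over these genes was -0.78, against 0.02 over all tested genes and 0.05 for the trachea samples over the list, so the median gene was lower in bladder sample 1. Cdc20, an activator of the anaphase-promoting complex, stood at 26.8 and 55.6 CPM in bladder and 107 and 98.9 CPM in trachea, and the formin Diaph3 at 23.9 and 39.4 CPM against 97.3 and 105 CPM. The log2 fold changes were -1.43 and -1.73, and Cdc20 was not called without bladder sample 1. Ckap2l, a mitotic spindle protein, was higher in bladder at 83.2 and 110.0 CPM against 24.7 and 22.8 CPM (2.01), as was the kinase inhibitor Cdkn2b at 408 and 257 against 115 and 112 CPM (1.51).

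Of 47 tested genes of lipid and fatty acid metabolism, 11 were higher in bladder and 7 in trachea, with a median of 0.31. Cpt1a, which admits fatty acids to mitochondria for oxidation, stood at 202 and 194 CPM in bladder and 25.8 and 25.4 CPM in trachea. The cholesterol exporter Abca1 stood at 38.2 and 21.6 CPM against 2.73 and 2.13 CPM, and Fabp4, given above, was the furthest towards bladder. Bladder was higher in each sample, with log2 fold changes of 2.95 (SE 0.07, limma adjusted p = 3.06e-14) and 3.57 (SE 0.41). Prostaglandin synthesis was divided, with Ptgs1 at 356 and 440.4 CPM in bladder and 166 and 165 CPM in trachea, and the inducible Ptgs2 at 162 and 243 CPM against 586 and 574 CPM. The first was higher in bladder (1.26) and the second in trachea (-1.55), and Ptges, the synthase of prostaglandin E that acts after them, was also higher in trachea at 23.4 and 20.3 against 89.6 and 97.1 CPM (-2.09). These 3 genes were singled out after their values were seen.

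Some genes that lie next to each other differed in the same or in opposite directions. By their order in the RefSeq annotation of GRCr8, in which 1844 of the named genes could be placed, 229 pairs of neighbouring protein-coding genes were both tested. In 35 pairs both genes were called, 17 with both higher in bladder, 10 with both higher in trachea and 8 in opposite directions. The loci described here were chosen after their values were seen. On chromosome 3, Duox2 and its maturation factor Duoxa2 were higher in bladder, while the adjoining Duoxa1 and Duox1, the same pair of functions, were higher in trachea. Duox1 stood at 2.39 and 3.23 CPM in bladder and 32.1 and 36 CPM in trachea, and Duoxa1 at 10.7 and 11.6 CPM against 28.1 and 30.1 CPM. The bladder samples were the lower in both, with log2 fold changes of -3.62 (SE 0.16) and -1.39 (SE 0.09). Duox1 lay between 99.3 and 251 CPM in the other first-round tissues. On chromosome 2, Clca5, Clca4l, Clca4 and Clca1 lie in a row and were all higher in bladder (2.14, 2.40, 4.41 and 2.90), whereas Clca2 beside them was not called, at 384 and 363 CPM in bladder and 309.7 and 321 CPM in trachea (0.24). Clca4l, a chloride-conductance relative, moved to 1.56 without bladder sample 1 and 3.24 without sample 2. These are similar genes, and reads shared between copies were not counted.

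On chromosome 1, Dmrt1, Dmrt3 and Dmrt2 were all higher in trachea (-2.65, -2.48 and -7.34, the last between -8.15 and -6.59 without a bladder sample). Dmrt3 stood at 4.37 and 5.56 CPM in bladder and 28.1 and 26.9 CPM in trachea, and Dmrt1 at 0.597 and 0.517 CPM against 3.69 and 3.54 CPM, with no overlap in either. On chromosome 4, the complement proteases C1rl, C1r and C1s were higher in trachea (-1.38, -3.23 and -2.12). The fatty acid desaturases Fads2 and Fads1 on chromosome 1 were higher in trachea (-1.14 and -1.29), and Fads3 next to them was below the 2-fold threshold (-0.84).

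**Figure D4:**
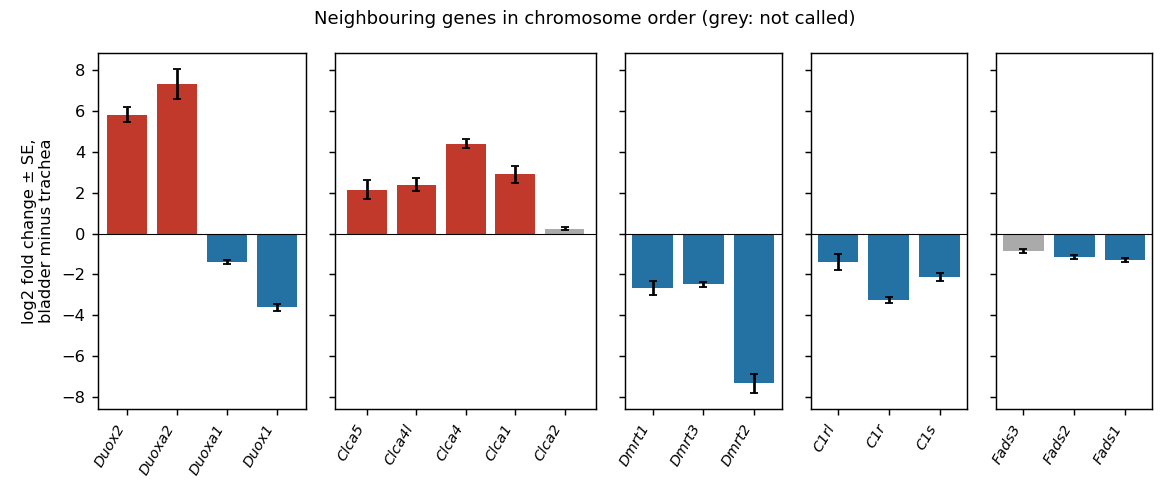
Log2 fold change, bladder minus trachea before transplantation (y axis), of neighbouring genes at 5 loci in chromosome order, with bars for the standard error. The Duox locus holds 2 genes higher in bladder (red) beside 2 higher in trachea (blue), while the called genes of each other locus share a direction and Clca2 and Fads3 (grey) were not called.

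The bladder samples agreed less well than the trachea samples. The distance used above was 0.450 between the bladder samples and 0.252 between the trachea samples. The limma fit pools the spread over all groups, so it can understate that of bladder. A fit of only the 4 compared samples called 1814 genes. A difference of at least 2-fold was found in 632 genes (4.75%) between the bladder samples, 407 of them higher in sample 1, and in 142 genes (1.07%) between the trachea samples. Among the 2063 called genes, the bladder samples lay at least 2-fold apart in 247 genes, and each bladder sample was at least 2-fold from the trachea mean in 1592 (77.2%). Sample 1 was the farther from trachea in 938 of the 1320 genes higher in bladder (71.1%) and in 351 of the 743 higher in trachea (47.2%). Among called genes with a symbol that reached 10 CPM in either bladder sample, the largest such gaps were those of Krt4, Il1rl1, Ifitm1 and Clca4l and of Tmem140, a small membrane protein, and the immediate-early factor Egr1. Tmem140 stood at 19.1 and 5.52 CPM in bladder and 2.31 and 3.38 CPM in trachea, and Egr1 at 75.2 and 206 CPM against 311 and 273 CPM. Sample 2 lay nearer to trachea in both, and neither was called without sample 1 (1.93 to 0.98, and -1.23 to -0.50) or in a fit of only the 4 samples. Clca4l stood at 1415 and 441 CPM in bladder and 153 and 146 CPM in trachea.

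The recovered cells, which had been transplanted into newborn mouse skin and cultured again, share no sample with the comparison before transplantation. Recovered bladder and trachea cells differed in 2435 genes (18.3%), 1637 higher in bladder (12.3%) and 798 higher in trachea (6.0%). Of the 1320 genes higher in bladder before transplantation, 758 (57.4%) were called in the same direction, which is 46.3% of the calls towards bladder among recovered cells, and 32 (2.4%) in the opposite one. Of the 743 higher in trachea, 291 (39.2%) were called in the same direction, 36.5% of the recovered calls towards trachea, and 68 (9.2%) in the opposite one. The median log2 fold change of the first set went from 1.86 to 1.46, and that of the second from -1.61 to -0.74. The sets were chosen on the first of these values. The recovered bladder and trachea cells lay 1.15 apart in root mean square difference, and vagina and whisker (0.895) were then the closest pair.

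Among the genes kept with the largest differences, Ctse had 86 and 115 counts in recovered bladder and 0 in both recovered trachea samples, at least 73.8-fold higher against a floor of 3 counts over both. Aldh1a3 stood at 495 and 462 CPM in recovered bladder and 31.5 and 31.3 CPM in recovered trachea. The bladder level was far below that before transplantation, and the tissues still did not overlap. Tbx3 stood at 45.4 and 40.6 CPM against 6.34 and 5.4 CPM, with both tissues now well above the floor. The recovered log2 fold changes of Aldh1a3 and Tbx3 were 3.93 and 2.88, and those of Fabp4, Duox2 and Duoxa2 were 5.47, 2.26 and 5.59. Towards trachea, Bmx stood at 0.143 and 0.172 CPM in recovered bladder and 79.5 and 74.6 CPM in recovered trachea (-8.74). Isl1 had 1 count in each recovered bladder sample and 198 and 286 in recovered trachea. Adtrp, Dmrt2 and Cd38 were also called again (-2.58, -2.25 and -6.65).

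**Figure D5:**
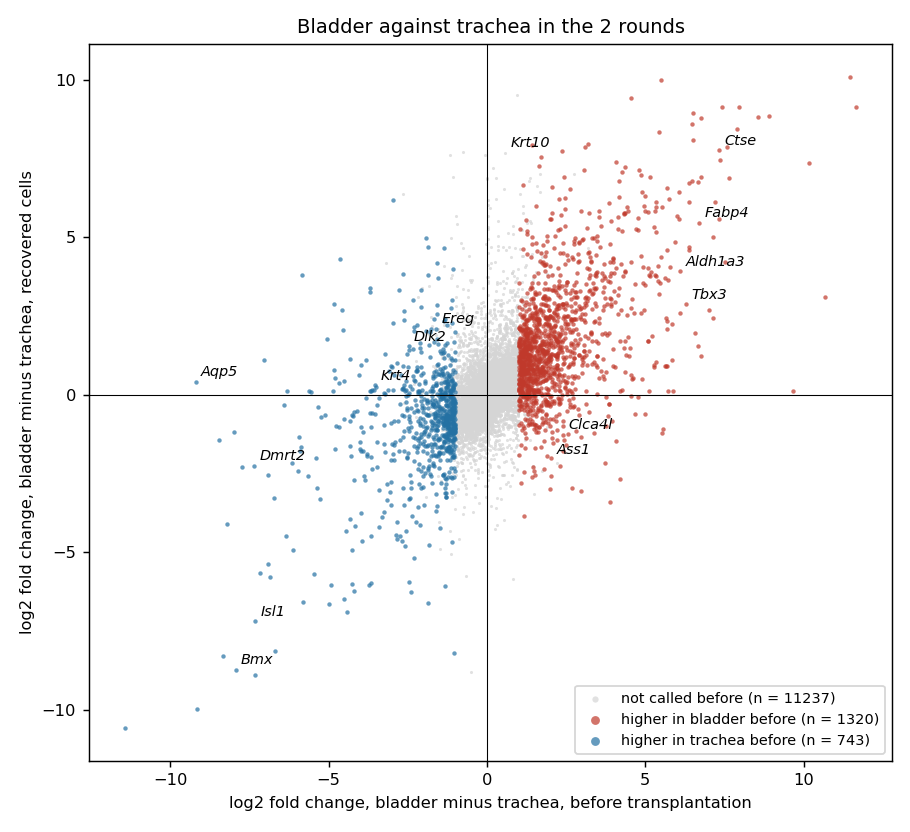
Log2 fold change, bladder minus trachea, before transplantation (x axis) and in recovered cells (y axis) for each of the 13300 genes, coloured by the call before transplantation (1320 red, 743 blue). Of the called genes, 1140 red and 533 blue keep their sign, and Aqp5 and Krt4 lie near 0 on the y axis while Ereg and Dlk2 lie above it.

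Whether the difference between bladder and trachea changed with transplantation was tested directly as an interaction term in the same limma fit. It passed in 1673 genes (12.6%), with 1020 (7.67%) shifted towards bladder and 653 (4.91%) towards trachea. Among the genes called before transplantation, it passed in 437 of the 1320 higher in bladder and in 349 of the 743 higher in trachea. Aqp5 stood at 0.905 and 0.388 CPM in recovered bladder and 0.282 and 0.62 CPM in recovered trachea, so the high level of the trachea samples before transplantation was no longer seen (change 9.62). Krt10, a keratin of suprabasal epidermis, was low in both tissues before transplantation, at 1.57 and 1.64 CPM in bladder and 1 and 1.17 CPM in trachea. It stood at 235 and 223 CPM in recovered bladder and 1.27 and 0.949 CPM in recovered trachea, high only in the recovered bladder samples among these 8 (change 7.14). Cyp27a1, a sterol hydroxylase, and Wipf1, a partner of the Wiskott-Aldrich protein, also shifted towards bladder (change 8.59 and 6.50).

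In the other direction, Cdh6 had no count in either recovered bladder sample and 3 in each recovered trachea sample, at least 1.82-fold higher in trachea against a floor of 3 counts over both, after being high in bladder (change -6.87). Crip1, a small LIM-domain protein, stood at 0.476 and 0.603 CPM in recovered bladder and 53 and 57.9 CPM in recovered trachea (change -4.75). The dynein intermediate chain Dnai2 and Hgfac, the activator of hepatocyte growth factor, differed by 0.33 and 0.27 before transplantation and were not called then. Both were higher in recovered trachea (-4.12 and -3.61). Of the genes called in opposite directions in the rounds, Ereg stood at 141 and 143 CPM in recovered bladder and 32.8 and 33.3 CPM in recovered trachea, and Dlk2 at 59.3 and 63.1 CPM against 20.9 and 20.9 CPM. Both had been lower in bladder and were now higher there in each sample (2.10 and 1.55). Antxr1, a collagen-binding receptor, changed in the same way (-1.66 to 1.67), and Ass1, an enzyme of arginine synthesis, in the opposite one (2.04 to -1.38). Clca4l went from 2.40, or 1.56 without bladder sample 1, to -1.27.

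Several gene lists had other counts in recovered cells, where 717 of the 1911 genes with a usable symbol were called (37.5%). Of the 1911, 509 (26.6%) were called towards bladder and 208 (10.9%) towards trachea. Of the 26 cornified envelope genes, 12 were higher in recovered bladder and 2 in recovered trachea, with a median of 0.94, against 2 and 7 before transplantation. Of the 16 tight junction genes, 9 were higher in recovered bladder, with a median of 1.20. Of the 43 genes of ion and water transport, 19 were higher in recovered bladder and 7 in recovered trachea, and of the 33 chemokines and cytokines 16 and 1. Cell cycle genes numbered 2 in each direction, with a median of -0.09. The difference between the rounds was not tested for any list.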

How the data were processed

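Reads of stranded mRNA libraries were trimmed with cutadapt (1.8), aligned with STAR (2.5.2b) to Rnor 6.0 and counted per Ensembl gene with HTSeq (0.6.1), per the labels and the study's methods. The deposited values are raw counts, and the authors left reads with several alignments uncounted. The 20 samples were fitted together in limma (3.58.1) with voom, TMM scaling (edgeR 4.0.16, R 4.3.3), 10 group means and the filter of 1 CPM in at least 1 sample, and the 3 contrasts were bladder minus trachea before, after recovery and their difference. Alternatives were edgeR's quasi-likelihood test, DESeq2 (1.42.0), other scaling and filters, only the compared samples, a replicate block, a stricter fold threshold and samples left out in turn; those for gene lists were added after the data were seen. Scripts were tested on simulated data. Members and lists were chosen with earlier results of these data known. Named were, by rule, the 15 called genes furthest apart in each direction (at least 10 CPM), up to 4 called per list, the markers, and the largest genes by gap between bladder samples, by agreement between rounds and by interaction; exceptions are stated. Symbols were paired with 2311 identifiers, from supplementary tables that were held in part, so some genes are unnamed. Exact permutation of 2 against 2 samples cannot give a p below 0.33 and was not used. Genome positions of the counted genes are not given here, since no annotation of Rnor 6.0 was used. Results for some genes are not reported here.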

Additional observations from a re-analysis of the deposited data

Results flagged for a closer look

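The effect of tissue differed between the rounds, by the interaction term of limma (voom), in 1673 genes at an adjusted p under 0.05 and at least 2-fold. Values here are the change in the log2 difference of bladder minus trachea from the first round to the recovered cells. The change was 9.62 for Aqp5, 8.59 for Cyp27a1, 7.14 for Krt10 and 6.50 for Wipf1, all shifted towards bladder. It was also positive for Dlk2 (4.02), Ereg (3.71) and Antxr1 (3.33), which were called in opposite directions in the rounds. The change was -6.87 for Cdh6, -3.67 for Clca4l and -3.42 for Ass1, which were all higher in bladder at first. Among recovered cells Clca4l and Ass1 were higher in trachea. Cdh6 was then near the floor in both tissues, with 0 counts in each bladder sample and 3 in each trachea sample. The change was -4.75 for Crip1, -4.45 for the ciliary gene Dnai2 and -3.88 for Hgfac. The fitted values of Aqp5 and Cdh6 rest on groups with 3 counts or fewer and depend on the prior count. What set these changes was not tested.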

How the results depend on the processing

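Called genes numbered 2089 with edgeR's quasi-likelihood test, 1935 with DESeq2 and 2726 without a filter, against 2063 with limma, and each of the 6 counts kept within 1.5 times its value except under a fold threshold of 4. There the counts were 860 in all, 587 higher in bladder, 273 higher in trachea, 1063 in recovered cells, 769 for the change and 406 called alike in both rounds, since fewer genes can pass. Leaving out 1 sample gave 1834 to 2330 in all, 1174 to 1508 higher in bladder, 660 to 822 higher in trachea, 2253 to 2325 in recovered cells, 1450 to 1772 for the change, 949 to 1130 alike in both rounds, and a distance of 1.01 to 1.09. With the replicate number as a block, the count was 2065, with 2453 in recovered cells, 1688 for the change and 1055 alike in both rounds; the deviations of same-numbered bladder and trachea samples correlated at -0.019 before transplantation and 0.091 after it. Over the 10 group pairs of a round these correlations ran from -0.122 to 0.133 before and from 0.002 to 0.155 after it, not all above 0.1, and the labels tie the numbers to no shared animal, so the samples were not taken as paired. The distance between bladder and trachea was 1.18 with a prior count of 0.5, 2.74 over the 1000 most variable genes and 0.047 as 1 minus Spearman's rho, and stayed the smallest of 10.

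Of 100 named called genes, 90 were called under every alternative but the fold threshold. The 16 changes of sign concerned marker genes that were not called. Cfap43 was 0.02 with edgeR and with DESeq2, against -0.03. With 1 sample left out, Cfap43 ran from -0.63 to 0.52, Aspn from -0.71 to 0.81, Casc1 from -0.20 to 0.38, Cfap70 from -0.53 to 0.66, Dnai2 from -0.29 to 0.87, Cfap221 from -1.23 to 0.20, Col1a1 from -0.27 to 0.20, Dnah1 from -0.35 to 0.11, Esam from -0.27 to 0.16 and Dnaaf3 from -0.01 to 0.68. The cause was not tested. With 2 samples a group, genes near the floor of 3 counts and genes on which the bladder samples differ carry the least certain values.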
